A study of Mus musculus with 18 samples.

Results

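The hypertrophic zone of cultured mouse tibiae was compared with the resting/proliferating zone of the same bones, in cultures that received only the vehicle. The comparison set 6 of the 18 arrays of the study against each other, 3 per zone, paired by the culture numbers 2, 3 and 4 in the titles. The fit that tested it held all 18 arrays, so its normalization, filter and estimate of the spread also draw on the mineralized and CNP-treated samples. Every probe set that was not an Affymetrix control and was not among the dimmest 40% was tested, which left 27022 of 45037 probe sets and 13260 named genes. The bones were tibiae of CD1 mouse embryos of both sexes, taken at E15.5 (embryonic day), kept in organ culture for 6 days. Vehicle cultures received bovine serum albumin in hydrochloric acid (BSA/HCl, 1 mM as the labels give it) on days 1, 3 and 5, and the matching cultures received C-type natriuretic peptide (CNP, 1e-06 M) on the same days. About 24 tibiae were pooled per treatment, and on day 6 they were cut under the microscope into a resting/proliferating, a hypertrophic and a mineralized zone. All groups therefore share strain, age, culture and cutting, and each array stands for a pool of bones, not for 1 animal. Zones cut by eye are not pure cell types, and in bulk tissue fewer cells of a type and less RNA per cell cannot be told apart.

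The growth plate is the cartilage that lengthens a long bone. Its chondrocytes rest, then divide in columns, then leave the cell cycle and enlarge as hypertrophic chondrocytes, which lay down collagen X and calcify their matrix before bone, vessels and osteoclasts replace it. Prehypertrophic cells secrete Indian hedgehog, which keeps their neighbours dividing and, through parathyroid hormone-related protein and its receptor Pth1r, delays their hypertrophy.

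Deposited median signals were 62.1, 91.3 and 89.0 on the resting/proliferating arrays and 98.9, 109.9 and 76.9 on the hypertrophic arrays of cultures 2, 3 and 4, and signals were quantile-normalized before testing. The actin 3'/5' probe set ratio, a sign of RNA integrity that rises with degradation, was 2.70 ± 0.31 (SD, n = 3) in the resting/proliferating and 2.28 ± 0.08 (SD, n = 3) in the hypertrophic arrays. All 3 hypertrophic ratios lay below the lowest of the other zone (exact permutation p = 0.1, two-sided and unpaired, the smallest that 3 against 3 can give). This test did not use the pairing by culture, and the part of this difference in the results below was not tested. The Gapdh ratio was 1.44 ± 0.03 (SD, n = 3) and 1.53 ± 0.21 (SD, n = 3, exact permutation p = 0.6, two-sided and unpaired). The resting/proliferating array of culture 4 is titled as vehicle but has a treatment field that reads CNP; the title was used. Without culture 4, 2485 probe sets passed the test in place of 5157. The arrays of both zones of culture 2 came from a fluidics run whose log recorded an abort, and without that culture 3005 passed. Without culture 3, which had neither of these marks, 3255 passed, and all 3 of these fits hold fewer arrays. Within each culture, both arrays shared a fluidics run and a hybridization day, so that these batches do not differ within a pair.

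Much of the transcriptome differed between the zones. Of 27022 probe sets tested, 5157 passed an adjusted p of 0.05 (19.1%), 2728 of them higher (10.1%) and 2429 lower (8.99%) in the hypertrophic zone. Tests here are limma's moderated test with Benjamini-Hochberg adjustment, and a log2 fold change is on the log2(signal + 16) scale, which understates changes of dim genes. At least 4-fold differences were seen for 265 probe sets in the higher and 136 in the lower direction, and at least 8-fold differences for 75 and 21. Counted as genes, each by its brightest probe set, 1226 of 13260 were higher (9.25%) and 1488 lower (11.2%), with a median log2 fold change of -0.06. Without culture 2, 3 or 4 these counts were 802, 823 and 700 higher and 843, 894 and 682 lower, and without normalization 748 and 357. Higher probe sets made up 52.9% of the calls, against 74.2% of 2254 calls without normalization, where the median of all probe sets stood at 0.16. Over genes, the zone differences of the 3 pairs correlated at r = 0.647 to 0.733, a description across genes, which are not independent replicates.

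The genes with the largest rise held bone cell genes beside genes better known from other tissues. Cd28, a T cell costimulatory receptor, had signals of 114, 87.1 and 77.5 in the resting/proliferating arrays of cultures 2, 3 and 4 and of 3598, 2650 and 3961 in the hypertrophic arrays. The groups did not overlap (nor did those of 35.0% of all 13260 genes), and the fitted difference was 31.3-fold (log2 4.97 ± 0.27 SE, adjusted p = 1.36e-08 by limma), with 5.42 from a second probe set. Of 10 macrophage and leukocyte markers, 4 rose (Laptm5 2.18, Cd14 1.60, Cd68 1.05 and Csf1r 0.90) and 1 fell. The Cd68 call and the fall were lost without any 1 culture, and the Csf1r call without culture 3. Ptprc, found on all leukocytes, differed by 0.36 on the log2 scale without passing. The part of such cells in the Cd28 signal was not tested. The homeobox gene Irx5 went from 101, 101 and 89.5 to 2650, 1690 and 2757, a log2 difference of 4.36 ± 0.22 (SE). Prkcq, which encodes protein kinase C theta, went from 21.5, 14.9 and 9.29 to 518, 647 and 656, and its 3 mineralized arrays read 10.3, 23.3 and 12.1. Its high signal was thus seen in none of the mineralized arrays, whereas that of Cd28 (791 to 1563), Irx5 (1762 to 2543) and Klhl30 (346 to 514) was still above every resting/proliferating array there. Ifitm5 and Dmp1, both made by mineralizing osteoblasts or osteocytes, rose by log2 4.30 ± 0.21 (SE) and 3.89 ± 0.46 (SE). Phex, an endopeptidase of bone cells that restrains phosphate loss, rose by 4.02 ± 0.22 (SE). Tnfsf11, which encodes the osteoclast-inducing cytokine RANKL, had resting/proliferating signals of 56.4, 69.6 and 108 and hypertrophic signals of 2102, 1565 and 1776. All 3 hypertrophic arrays were above every resting/proliferating array (log2 4.31 ± 0.25 SE, adjusted p = 2.35e-08 by limma). Of the 15 genes with the largest rise, the others were Klhl30 (4.75), Tmie (4.27), the plasma proteins Hp (4.09) and Cp (3.98), the phosphatase gene Ptprz1 (3.96), Septin4 (3.91), the lysophosphatidic acid receptor Lpar3 (3.89) and the collagen Col22a1 (3.71), all as log2 differences.

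The 2 largest falls were of Mfap4 and Grem1. Mfap4, a microfibril-associated protein, read 2142, 1751 and 2108 in the resting/proliferating arrays and 48.3, 42.7 and 33.8 in the hypertrophic arrays (35.1-fold lower, log2 -5.13 ± 0.37 SE, adjusted p = 2.05e-07 by limma). Grem1, a secreted BMP antagonist, read 2044, 3270 and 2806 against 89.3, 90.7 and 70.2 (log2 -4.76 ± 0.20 SE, adjusted p = 2.2e-09). Neither gene overlapped between zones. Gas1, a cell surface co-receptor for hedgehog proteins, read 3706, 3235 and 3481 against 62.7, 336 and 101. Its hypertrophic array of culture 3 was the highest, its fall was 4.56 on the log2 scale (SE 0.36), and its 2 other probe sets gave -3.16 and -0.56. Signals of the angiotensin receptor gene Agtr2 were 1430, 1391 and 1478 against 93.7, 125 and 93.5 (log2 -3.61 ± 0.19 SE). The rest of the 15 were Cntn1 (-3.89), Pcp4 (-3.88), Sfrp5 (-3.52), Abi3bp (-3.49), Gas2 (-3.46), Negr1 (-3.41), Apoe (-3.38), 6330403K07Rik (-3.33), Creb5 (-3.22), Col14a1 (-3.13) and C1qtnf2 (-3.06). For Gas2 and Cntn1 another probe set showed little change (-0.04 and -0.05).

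**Figure D1:**
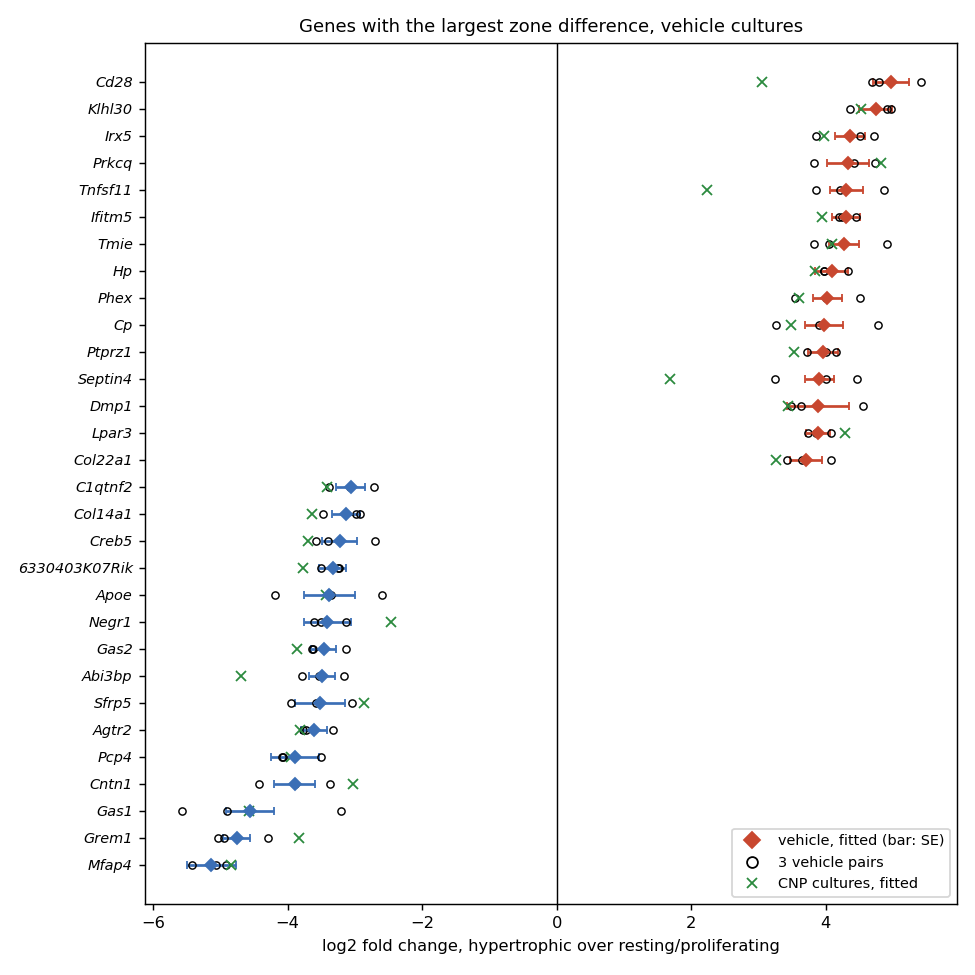
The 15 largest rises and the 15 largest falls between zones in vehicle cultures, on a log2 scale of hypertrophic over resting/proliferating. Diamonds are fitted differences with their SE, open circles the 3 pairs, and crosses the fitted difference in CNP cultures. The vehicle pairs of each gene lie on 1 side of 0, as the rule that picked the genes required. CNP values of Tnfsf11 (2.23) and Septin4 (1.68) lie nearer to 0 than the vehicle values.

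Genes known from prehypertrophic and hypertrophic chondrocytes rose as a group. Of 17 measured, 15 were higher and 1 lower, with a median log2 difference of 1.73 against -0.06 for all genes. With 1 culture left out, 12 to 13 were higher, and without normalization 12. Col10a1, which encodes the collagen of the hypertrophic matrix, read 2314, 436 and 940 in the resting/proliferating arrays and 7833, 6765 and 8106 in the hypertrophic arrays. The hypertrophic arrays were close together, and the resting/proliferating array of culture 2 was the highest of its group, so that the pairs differed by 1.75, 3.91 and 3.09 on the log2 scale (fit 2.92 ± 0.45 SE, adjusted p = 0.00031 by limma). Ihh, the ligand Indian hedgehog, read 313, 188 and 199 against 2068, 1061 and 1644 (log2 2.67 ± 0.21 SE). It returned to 207 to 285 in the mineralized arrays, and Col10a1 to 354 to 704. Bmp6 was at 255 to 272 there, below every hypertrophic array but above every resting/proliferating array (112 to 177). Mmp13, the collagenase that cleaves the cartilage collagens, read 2229, 750 and 931 against 7235, 7065 and 7077 (log2 2.60 ± 0.23 SE) and stayed at 6116 to 7378 in the mineralized arrays. Like Col10a1, it was highest in culture 2 among the resting/proliferating arrays. Pth1r, the receptor for parathyroid hormone and its related protein, rose by 1.87 ± 0.25 (SE), and Alpl, the phosphatase that frees phosphate for mineral, by 2.01 ± 0.17 (SE). Bmp6 rose by 3.12 ± 0.16 (SE) and Bmp2 by 2.50 ± 0.22 (SE), both bone morphogenetic proteins. Sp7, the osteoblast factor osterix, rose by 1.96 ± 0.14 (SE) and the transcription factor gene Mef2c by 0.89 ± 0.11 (SE). Ibsp, bone sialoprotein, rose by 1.73 ± 0.17 (SE) on its brightest probe set and by 4.13 on the other. Vegfa, the main angiogenic factor, rose by 0.80 ± 0.21 (SE, adjusted p = 0.016 by limma) and did not pass without culture 2 or 4. The member that fell was the magnesium transporter gene Slc41a2 (-0.75 ± 0.18 SE), and without culture 4 none was lower.

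**Figure D2:**
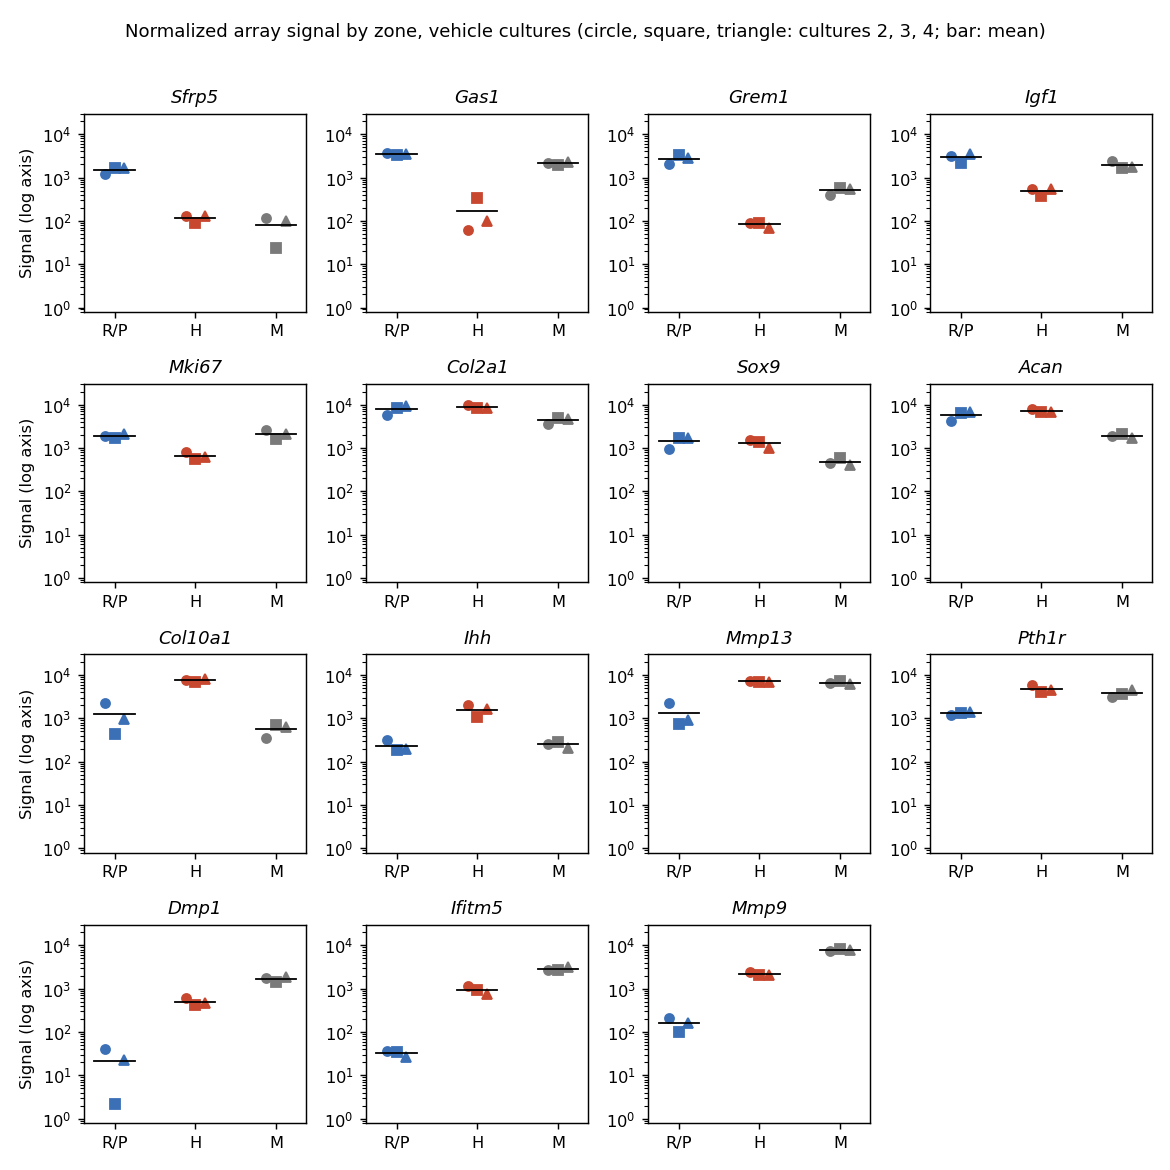
Normalized signals of 15 genes on a log axis in the 9 vehicle arrays, by zone (R/P resting/proliferating, H hypertrophic, M mineralized), with a symbol for each culture and a bar at the mean. Col10a1 and Ihh are highest in H, Mmp13 and Pth1r are high in H and M, Dmp1, Ifitm5 and Mmp9 climb from R/P to M, and Mki67 and Igf1 are lowest in H.

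The promoter of Mmp13 is printed because it was the one among the 3 always-named genes with the largest rise (Col10a1, Ihh and Mmp13) whose window held a match to a searched motif. Sequences are from RefSeq on GRCm38.p6, 250 bases before to 50 after the gene's start, on the gene's strand. The motifs TGTGGT (RUNX factors) and TGANTCA (AP-1) were searched on both strands. In the Mmp13 window, chr9:7272264-7272563 on the plus strand, capitals mark a RUNX match at -118 and an AP-1 match at -35 bases from the start.
Mmp13: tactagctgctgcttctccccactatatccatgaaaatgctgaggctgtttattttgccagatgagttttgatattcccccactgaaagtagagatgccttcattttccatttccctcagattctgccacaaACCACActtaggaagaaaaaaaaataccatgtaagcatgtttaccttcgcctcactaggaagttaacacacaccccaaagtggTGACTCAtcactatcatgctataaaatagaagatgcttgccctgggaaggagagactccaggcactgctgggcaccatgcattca
RUNX letters were in 13.2% of the 1314 promoters of genes higher in the hypertrophic zone and in 12.7% of the 13621 promoters of all genes tested. AP-1 letters were in 6.01% and 5.61%, so neither share stood far from its background. A match is a description of letters, not of binding.

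Genes of resting and articular-side chondrocytes moved the other way: 11 of 14 measured were lower and 1 higher (median -1.80). With 1 culture left out, 9 were lower, and without normalization 8. Sfrp5, a secreted WNT inhibitor, read 1189, 1620 and 1700 in the resting/proliferating and 131, 90.5 and 129 in the hypertrophic arrays (log2 -3.52 ± 0.37 SE). Apoe, a lipid carrier, read 2723, 2880 and 2316 against 253, 462 and 113. For both, every hypertrophic array was below every resting/proliferating array. Abi3bp, an extracellular matrix protein, fell by 3.49 ± 0.20 (SE), and the transcription factor gene Creb5 fell by 3.22 ± 0.26 (SE). Gdf5, a joint-forming growth factor, differed by -0.995 ± 0.30 (SE, adjusted p = 0.028 by limma), a call lost without any 1 of the 3 cultures. The WNT antagonist gene Wif1 rose instead, from 502, 617 and 511 to 2857, 2380 and 2735 (log2 2.26 ± 0.16 SE).

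The structural cartilage genes did not follow either pattern: of 23 measured, 2 were higher and 4 lower (median 0.00). Col2a1, the main cartilage collagen, read 5610, 8479 and 9078 against 9755, 8312 and 8358, and the zones overlapped (log2 0.22 ± 0.14 SE, adjusted p = 0.33 by limma). Acan, the core protein of aggrecan, differed by 0.32 ± 0.14 (SE, adjusted p = 0.14). Those that fell were Vcan (-2.62), Cilp2 (-2.62), Fmod (-1.68) and Matn4 (-1.36), which encode versican, an intermediate-layer protein, fibromodulin and a matrilin. Matn4 (adjusted p = 0.047 by limma) did not pass without any 1 culture. Comp (0.43) and Chad (0.70) rose, and neither did so without culture 2, with median centring or without the culture as a block. Among 20 chondrocyte transcription factor genes, 2 rose and 3 fell. Sox9, the master regulator of cartilage, read 956, 1723 and 1657 against 1541, 1380 and 1013 and did not pass (log2 -0.11 ± 0.23 SE, adjusted p = 0.80). Its partners Sox5 and Sox6 fell by 1.31 ± 0.19 (SE) and 0.81 ± 0.24 (SE), although another Sox6 probe set gave 0.22. The Sox6 call was lost without culture 3 or 4. Shox2, a homeobox factor of limb growth, fell by 1.43 ± 0.13 (SE), while Foxa3 (0.96) and Fosl2 (0.57) rose. Neither rise passed with any 1 culture left out.

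Genes of cell division were lower in the hypertrophic zone. Of 34 mitosis and spindle genes measured, 26 fell and 0 rose (median -0.95), and of 28 DNA replication genes, 17 fell and 0 rose (median -0.59). With 1 culture left out, 17 to 20 mitosis and 9 to 10 replication genes passed as lower, and without normalization 11 and 6. Mki67, the proliferation marker Ki-67, read 1912, 1671 and 2150 in the resting/proliferating and 787, 554 and 632 in the hypertrophic arrays (log2 -1.52 ± 0.19 SE, adjusted p = 4.98e-05 by limma). It was back at 1594 to 2543 in the mineralized arrays. Ube2c, which marks mitotic proteins for destruction, and the spindle checkpoint kinase gene Bub1b fell by 1.45 ± 0.19 (SE) and 1.43 ± 0.35 (SE), and the Bub1b call was lost without any 1 culture. The cytokinesis gene Anln fell by 1.50 ± 0.28 (SE), with -0.15 from another probe set. Mcm3, a subunit of the replicative helicase, read 1168, 1227 and 1132 against 424, 442 and 294, and Pola1, DNA polymerase alpha, read 857, 718 and 760 against 203, 380 and 216. Neither overlapped between zones, with differences of -1.59 ± 0.22 and -1.54 ± 0.21 (SE). Rrm2, a subunit of ribonucleotide reductase, fell by 1.16 ± 0.18 (SE). Tk1, thymidine kinase, fell by 1.30 ± 0.36 (SE), a call that was lost without any 1 culture.

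Of 20 genes that restrain the cell cycle or encode D and G cyclins, 11 rose and 3 fell (median 0.45). Cdkn1a, the CDK inhibitor p21, read 1864, 1450 and 1284 against 4530, 3969 and 4520 (log2 1.51 ± 0.13 SE), and a second probe set gave 1.87. Gadd45b, a stress-induced growth arrest gene, rose by 1.80 ± 0.23 (SE), Btg2 by 1.40 ± 0.21 (SE) and Cdkn2b, which encodes p15, by 1.36 ± 0.16 (SE). Cdkn1c, the CDK inhibitor p57, read 8407, 9040 and 9014 against 9398, 9665 and 9449. Its zones did not overlap, but the difference was small and did not pass (0.11 ± 0.10 SE, adjusted p = 0.51). The 3 that fell were Ccnd3 (-0.93), Cdkn2d (-0.62) and Cdkn2c (-0.61). Without culture 4, 7 rose and 1 fell.

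**Figure D3:**
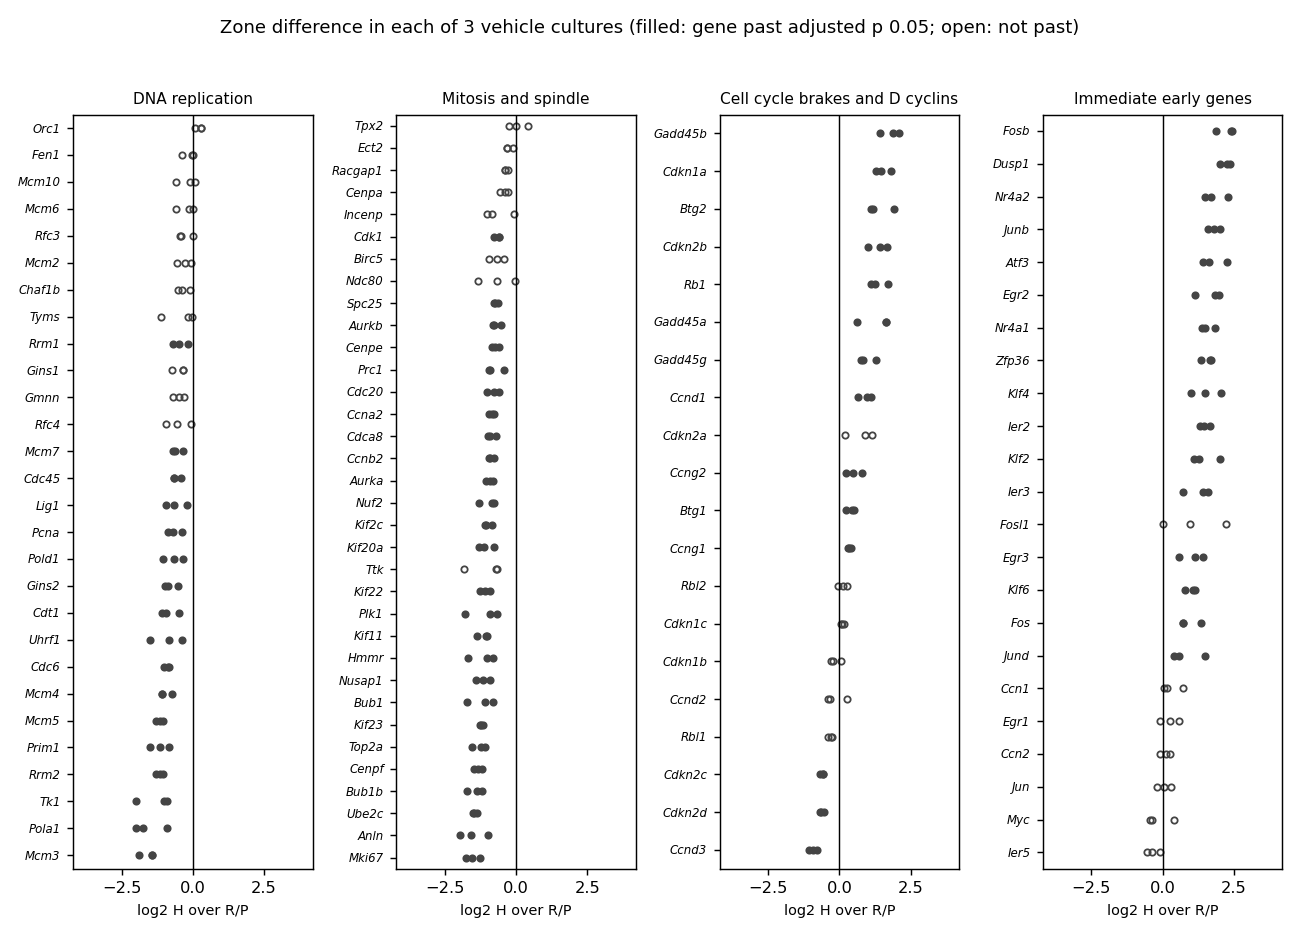
Log2 ratio of hypertrophic (H) over resting/proliferating (R/P) signal in each of the 3 vehicle cultures for every measured member of 4 gene lists, with filled points for genes past an adjusted p of 0.05. Mitosis genes lie mostly left of 0 (26 of 34 passed) and immediate early genes mostly right of it (16 of 23 passed).

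Promoters are shown for the 3 mitosis or replication genes with the largest fall among those with a promoter entry. The rule that picked them did not look at motifs. The CCAAT box (CCAAT), the cell cycle homology region (TTTGAA or TTCGAA) and the E2F motif (TTTCGCGC or TTTGGCGC) were searched on both strands. None of these motifs contains another. Capitals in Mki67 (chr7:135716330-135716629, minus strand) mark 3 CCAAT boxes at -188, -166 and -141 and 2 cell cycle homology regions at -116 and -98. In Mcm3 (chr1:20820263-20820562, minus strand) they mark 3 CCAAT boxes at -117, -72 and -32 and an E2F match at 38, and a RUNX match at -201 stays in lower case. In Pola1 (chrX:93632106-93632405, minus strand) they mark an E2F match at -138 and a CCAAT box at -37.
Mki67: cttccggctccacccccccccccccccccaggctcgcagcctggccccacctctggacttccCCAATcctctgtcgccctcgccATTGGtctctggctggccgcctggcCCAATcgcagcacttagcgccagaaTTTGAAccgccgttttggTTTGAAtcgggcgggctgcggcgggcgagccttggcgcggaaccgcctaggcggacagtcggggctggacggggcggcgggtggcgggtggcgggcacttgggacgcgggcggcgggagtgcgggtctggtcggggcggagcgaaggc
Mcm3: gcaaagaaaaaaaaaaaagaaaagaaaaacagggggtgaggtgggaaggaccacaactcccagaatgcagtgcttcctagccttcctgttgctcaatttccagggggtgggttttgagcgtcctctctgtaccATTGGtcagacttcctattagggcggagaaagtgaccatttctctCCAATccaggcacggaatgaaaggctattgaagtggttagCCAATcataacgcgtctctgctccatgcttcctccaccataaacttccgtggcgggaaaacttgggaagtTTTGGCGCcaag
Pola1: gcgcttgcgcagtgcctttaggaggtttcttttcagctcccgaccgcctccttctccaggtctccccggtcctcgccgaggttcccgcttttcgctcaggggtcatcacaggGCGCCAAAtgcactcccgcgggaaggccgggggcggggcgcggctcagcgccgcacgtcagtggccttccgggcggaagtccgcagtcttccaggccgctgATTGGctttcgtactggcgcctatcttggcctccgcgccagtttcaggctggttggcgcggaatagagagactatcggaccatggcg
The cell cycle homology letters were in 27 of 31 promoters of the mitosis list (87.1%), against 14.0% of the promoters of genes tested and 19.2% of all 32851 promoters in the table. CCAAT was in 80.6% of them, against 37.2% and 37.4%. E2F letters were in 10 of 29 promoters of the DNA replication list (34.5%), against 1.45% and 0.813%, and in 1 of 31 of the mitosis list. These shares describe lists made up of known cell cycle genes. Over all genes lower in the hypertrophic zone the shares were 16.8% for the cell cycle homology letters, 39.3% for CCAAT and 2.89% for E2F.

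Within hedgehog signalling, the ligand gene Ihh rose and 3 co-receptor genes fell. Of 15 hedgehog and PTHrP pathway genes measured, 2 rose, Ihh and Pth1r, and 7 fell. Besides Gas1, the co-receptor genes that fell were Cdon, from 2751, 2997 and 3568 to 520, 556 and 487 (log2 -2.53 ± 0.17 SE), and Boc (-1.74). The signal transducer gene Smo (-0.96) and the transcription factor genes Gli2 (-1.20) and Gli3 (-0.76) fell as well. The pathway's own targets differed less: Ptch1 read 3760, 4479 and 5225 against 5590, 4672 and 5032 with overlap (0.19 ± 0.12 SE, adjusted p = 0.32 by limma), and Gli1 differed by -0.38 ± 0.17 (SE, adjusted p = 0.15).

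BMP and TGF-beta genes split, with 8 of 34 higher and 10 lower (5 lower without culture 2 and 6 without culture 4). Ligand genes that rose were Bmp6, Bmp2 and Bmp8a, the last from 124, 82.1 and 80.8 to 851, 614 and 870 (log2 2.84 ± 0.17 SE). Bmp5, another ligand, fell by 1.97, beside the antagonist genes Grem1 (-4.76) and Chrd (-1.35). The BMP feedback genes Bambi (1.32) and Smad6 (1.01) rose. Of the BMP target genes of the Id family, Id3 rose (0.97), while Id1 (-0.30) and Id2 (-0.20) did not pass.

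WNT pathway genes also split, 8 of 28 higher and 11 lower. The inhibitors went both ways. Dkk1, which blocks the LRP co-receptors, rose from 56.2, 52.0 and 91.2 to 870, 731 and 646 (log2 3.23 ± 0.22 SE), and Wif1 rose by 2.26. Sfrp2 fell from 994, 561 and 887 to 139, 121 and 101 (log2 -2.58 ± 0.21 SE), and Sfrp5 by 3.52. Of the ligands, Wnt5a (1.11) and Wnt5b (1.41) rose and Wnt9a (-1.75) fell, and the receptor genes Fzd1 (-0.92), Fzd2 (-1.24) and Fzd9 (-0.97) fell.

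Of 14 insulin-like growth factor (IGF) genes, 7 fell, 1 rose and 6 did not pass (median -0.97). Igf1, the growth factor itself, read 3159, 2186 and 3475 against 531, 384 and 532, with pair differences of -2.54, -2.46 and -2.67 on the log2 scale (fit -2.56 ± 0.19 SE, adjusted p = 3.47e-07 by limma). The mineralized arrays read 1675 to 2389, above every hypertrophic array. Pappa and Pappa2, proteases that release IGF from its binding proteins, fell by 2.44 ± 0.20 (SE) and 2.69 ± 0.25 (SE). Igfbp2, one of the binding proteins, fell by 2.46 ± 0.22 (SE). The gene that rose was the insulin receptor substrate Irs2 (1.96 ± 0.47 SE), which did not pass without culture 2 or 4, and the receptor gene Igf1r did not pass (0.43). FGF signalling genes, 16 measured, gave 3 in each direction. Fgfr2 fell by 1.28 ± 0.13 (SE), Fgfr1 rose by 0.97 ± 0.24 (SE) and Fgfr3, the receptor that restrains growth plate chondrocytes, did not pass (0.22 ± 0.11 SE, adjusted p = 0.19). The Fgfr1 call was lost without culture 2 or 4. Fgf7, a ligand, rose by 1.93 ± 0.30 (SE), and Dusp4, a phosphatase of the downstream kinases, rose by 2.30 ± 0.27 (SE).

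Among 13 genes of natriuretic peptide and cyclic GMP signalling, the pathway that CNP acts on, 4 rose and 1 fell. The CNP receptor gene Npr2 read 927, 988 and 1193 against 1211, 843 and 1007 and the clearance receptor gene Npr3 read 326, 309 and 338 against 225, 324 and 336. Both overlapped between zones and neither passed (-0.03 ± 0.15 and -0.15 ± 0.22 SE). Prkg2, the cyclic GMP-dependent kinase of chondrocytes, rose from 958, 799 and 883 to 3475, 3230 and 2968 (log2 1.86 ± 0.19 SE, adjusted p = 8.83e-06 by limma). Corin, a protease known in the heart for cutting the precursor of another natriuretic peptide, rose by 2.21 ± 0.31 (SE), and Gucy1a1, a subunit of the nitric oxide-sensitive cyclase, by 1.57 ± 0.25 (SE), with other probe sets at 0.09 and 0.48. Prkg1 rose by 0.68. Pde9a, a phosphodiesterase of cyclic GMP, fell from 70.5, 85.3 and 127 to 14.9, 14.8 and 28.7 (log2 -1.63 ± 0.25 SE).

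Of 18 genes of mineralization and bone matrix, 9 rose and 4 fell (median 0.49), and 1 to 2 fell with 1 culture left out. Beside Ifitm5, Phex, Dmp1, Alpl and Ibsp, Col1a1, the main collagen of bone, rose by 1.60 ± 0.31 (SE), a call that was lost without the culture as a block (adjusted p = 0.079). The listed osteoblast markers gave 6 of 7 higher, and all 6 are genes already given above. The summed signal of the 7 was 6446 to 8394 in the resting/proliferating, 15444 to 19908 in the hypertrophic and 20760 to 29453 in the mineralized arrays. The seventh, Omd, fell by 1.93. Osteoclast markers gave 9 of 11 higher and 0 lower (median 1.16), and 6 to 7 were higher with 1 culture left out. In the CNP cultures 4 of the 11 were higher (median 0.44). Summed signals of these markers in the vehicle cultures were 3237 to 4194, 9240 to 10542 and 36001 to 42149 in the same order. Mmp9, a gelatinase of osteoclasts and of the vascular front, read 215, 101 and 159 against 2481, 2036 and 2067 and reached 7367 to 8460 in the mineralized arrays. Acp5, the osteoclast acid phosphatase, read 383, 364 and 278 against 1074, 1152 and 1206. All 3 arrays of each zone were apart for both genes, and the part of mineralized tissue or osteoclasts in the hypertrophic samples was not tested. Genes that signal to osteoclasts and leukocytes gave 5 of 10 higher and 3 lower. Beside Tnfsf11, Ptgs2, the inducible prostaglandin synthase, rose by 2.74 ± 0.24 (SE), and the chemokine gene Ccl9 by 2.12 ± 0.23 (SE). Tnfrsf11b, the decoy receptor of RANKL, fell by 1.86, and the chemokine gene Cxcl14 fell by 2.34 ± 0.30 (SE).

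Matrix-degrading and matrix-modifying genes changed by single members more than as groups. Of 23 genes listed as proteases and inhibitors, 4 rose and 4 fell (2 fell without culture 3 or 4), led by Mmp9 (3.71 ± 0.21 SE) and Mmp13. Among the 4 that rose was Cd44 (1.49 ± 0.17 SE), a receptor gene that is neither a protease nor an inhibitor. Mmp2 fell by 0.86 ± 0.15 (SE). Of 22 collagen-modifying genes, 2 rose and 7 fell, but 3 fell without culture 3 and 2 without culture 4. Loxl4, a collagen cross-linking oxidase, rose from 312, 219 and 265 to 3657, 2633 and 3481 (log2 3.54 ± 0.17 SE, adjusted p = 6.72e-09 by limma), whereas its relative Loxl1 fell from 1689, 1231 and 1738 to 555, 349 and 493 (log2 -1.71 ± 0.20 SE). The prolyl hydroxylase genes P3h2 (1.65 ± 0.19 SE) and P3h3 (-1.46 ± 0.25 SE) likewise went opposite ways. Of 26 genes of glycosaminoglycan synthesis, 4 rose and 7 fell, again with 3 and 2 falling without culture 3 or 4. The sulfotransferase gene Chst15 rose by 1.88 ± 0.27 (SE), the manganese and zinc transporter gene Slc39a8 by 1.43 ± 0.20 (SE), and the heparan sulfate enzyme gene Hs6st2 fell by 2.60 ± 0.21 (SE), with 0.15 from its other probe set.

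Ribosomal, respiratory chain and secretory pathway genes gave few calls, beside a background of 9.25% higher and 11.2% lower. Of 19 cytosolic ribosomal protein genes none passed by limma (median 0.01; Rpl37 0.18 and Rpl14 -0.09 were the largest of each sign), and of 29 respiratory chain genes 3 rose by up to 0.44 (Sdha), of which 1 rose without culture 3 and 0 without culture 2 or 4. The 25 ER stress and folding genes gave 3 higher and 2 lower (0 to 1 lower with 1 culture left out), with Atf3 (1.76 ± 0.21 SE) and Trib3 (0.86 ± 0.21 SE) among them. Trib3 did not pass without culture 2 or 3. ER to Golgi transport gave 0 higher and 3 lower of 25 (0 lower without culture 3 or 4), and Sar1a (-0.30) had another probe set that passed in the opposite direction (0.55). In hypoxia and glycolysis, 5 of 27 rose and 4 fell, against 3 to 4 and 1 to 4 with 1 culture left out. Epas1, the hypoxia-inducible factor HIF-2 alpha, rose from 486, 457 and 576 to 4153, 2635 and 4242 (log2 2.80 ± 0.24 SE), while Car9, a carbonic anhydrase known as a target of HIF-1, fell from 1313, 1526 and 1537 to 187, 234 and 182 (log2 -2.77 ± 0.31 SE). Of the sterol and fatty acid genes 5 of 20 rose and 2 fell. Without culture 3 or 4, 1 rose and 0 fell, without culture 2, 3 and 1, and with only the 6 arrays compared 10 rose. Sc5d, a late enzyme of cholesterol synthesis, rose by 1.03 ± 0.15 (SE) on its brightest probe set but another passed in the opposite direction (-0.58).

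Immediate early genes, which are induced within minutes by growth factors or stress, were higher together: 16 of 23 rose and 0 fell (median 1.25). Fosb read 161, 90.7 and 110 against 943, 544 and 448 (log2 2.23 ± 0.21 SE), and Dusp1, a phosphatase that switches off MAP kinases, read 587, 643 and 460 against 3062, 2657 and 2257 (log2 2.21 ± 0.13 SE, adjusted p = 2.14e-08 by limma). Junb rose by 1.80 ± 0.20 (SE) and the nuclear receptor gene Nr4a2 by 1.82 ± 0.20 (SE), with no overlap between zones for any of these 4. Egr1 (0.24), Jun (0.05) and Myc (-0.13), from the same list, did not pass. The summed signal of the list was 23282 to 26107 in the resting/proliferating, 37291 to 47674 in the hypertrophic and 45339 to 52260 in the mineralized arrays.

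Vessel and guidance genes gave 9 of 30 higher and 7 lower (3 lower without culture 4). Slit3 (2.19 ± 0.25 SE), Sema4d (1.73 ± 0.16 SE) and the semaphorin receptor gene Plxnd1 (1.49 ± 0.21 SE) rose, and Angpt1, a ligand that stabilises vessels, fell from 2532, 1910 and 2897 to 424, 295 and 376 (log2 -2.69 ± 0.19 SE). Of 17 limb patterning genes of the Hox, Tbx and Pitx families, 8 fell and 0 rose (median -0.52), and 5 fell without culture 3 or 4. Tbx4, the hindlimb T-box factor, fell by 2.49 ± 0.28 (SE), Hoxa10 by 1.78 ± 0.20 (SE) and Hoxa11 by 1.29 ± 0.16 (SE). Hoxa5 differed by -1.58 ± 0.48 (SE), a call lost without culture 3 or 4, and its other probe set gave -0.02. Of 27 adhesion and basement membrane genes, 7 rose, led by the integrin gene Itgb3 (3.11 ± 0.22 SE) and by Cdh2, N-cadherin (2.42 ± 0.27 SE), and 4 fell (2 without culture 2 and 1 without culture 4). Apoptosis genes gave 2 higher and 2 lower of 18 (0 and 1 without culture 3 or 4), with Dapk1 (-1.42 ± 0.20 SE) the largest.

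**Figure D4:**
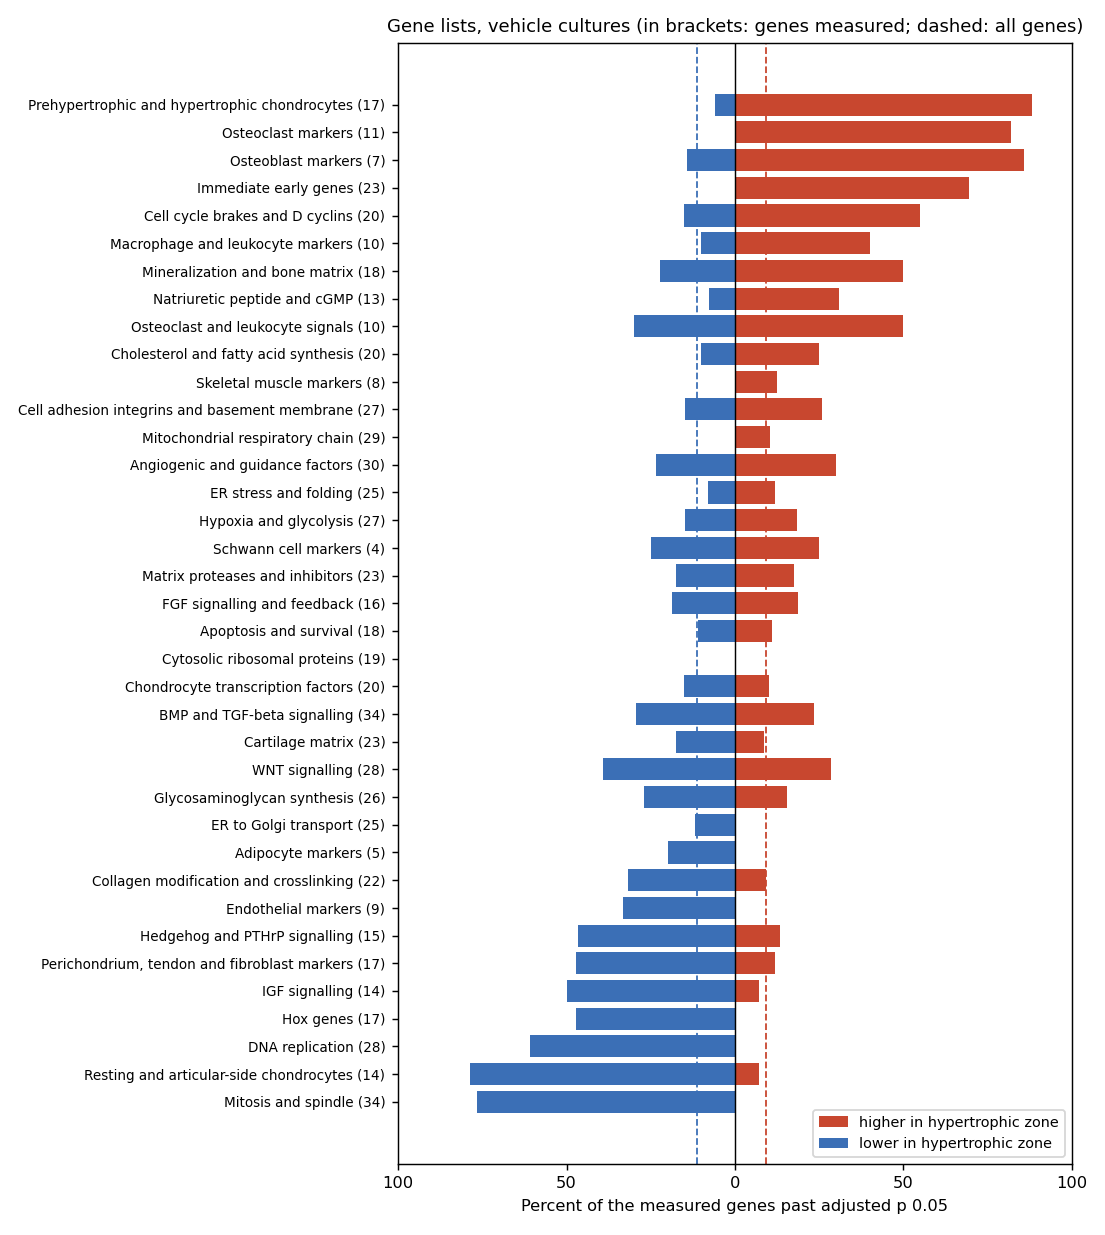
Percent of the measured genes of each list that passed an adjusted p of 0.05, to the right for those higher and to the left for those lower in the hypertrophic zone, with the number measured in brackets. Dashed lines mark the shares of all 13260 genes, 9.25% higher and 11.2% lower.

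Markers of other cells that a cut zone could hold were read beside these groups. Perichondrium, tendon and fibroblast markers gave 2 of 17 higher and 8 lower (5 lower without culture 4), and their sum was 50611 to 57428 in the resting/proliferating and 42565 to 47226 in the hypertrophic arrays. Col14a1, a collagen of dense connective tissue, read 2294, 2420 and 2780 against 275, 305 and 235. Dpt, dermatopontin, fell by 2.59 ± 0.24 (SE) and Tnmd, the tendon gene tenomodulin, by 1.52 ± 0.28 (SE). Col14a1 was lower in every hypertrophic array, whereas Lum (-0.07) and Scx (-0.14) did not pass, and the part of attached connective tissue in the genes that fell was not tested. Macrophage and leukocyte markers gave 4 of 10 higher (2 without culture 3) and 1 lower (0 without any 1 culture), summing to 1695 to 2334 and 3493 to 4763. Endothelial markers gave 0 of 9 higher and 3 lower (1 with 1 culture left out), with sums of 1196 to 1389 and 824 to 913, against 5344 to 6207 in the mineralized arrays. Skeletal muscle markers summed to 1020 to 1142 and 1072 to 1332 over 8 genes, and the 1 that rose was Tnni1 (3.02 ± 0.44 SE). Of 5 adipocyte markers Fabp4 fell (-0.91; not without culture 3), and of 4 Schwann cell markers Mbp, myelin basic protein, rose (2.91 ± 0.22 SE) and S100b, also a cartilage gene, fell (-0.59). All 4 erythroid markers on the array were too dim to be tested.

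The mineralized zone, lying beyond the hypertrophic zone, was set beside the comparison as levels only. Of the 1226 genes higher in the hypertrophic zone, 519 (42.3%) had their highest mean in the mineralized zone, against 33.0% of all genes. A further 503 (41.0%) lay between the other zones and 204 (16.6%) lay below both, against 25.2% and 41.8%. Of the 1488 lower genes, 514 (34.5%) were lower still in the mineralized zone, 708 (47.6%) lay between and 266 (17.9%) were above both, against 41.8%, 25.2% and 33.0% of all genes. The called genes were picked for a wide gap between the other 2 zones, which by itself raises the share lying between. These contrasts with all genes therefore cannot tell what is particular to the mineralized zone. All 9 osteoclast, all 6 osteoblast and all 4 macrophage markers that rose were at their highest in the mineralized zone. The 2 cartilage matrix genes that rose and the 5 sterol and fatty acid genes that rose were at their lowest there. Of the 26 mitosis genes that fell, 0 were below the hypertrophic level in the mineralized zone, and 8 were above both other zones.

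The same zones of the CNP-treated cultures, which share no array with the vehicle cultures, repeated most calls. Of the 1226 genes higher in vehicle cultures, 893 were called higher there (72.8% of that list and 54.3% of the 1645 called higher with CNP, 12.4% of all genes) and 4 were called lower. Of the 1488 lower genes, 1112 were called lower (74.7%, and 53.2% of the 2090 called lower with CNP, 15.8% of all genes) and 6 higher. With CNP, 28.2% of genes were called. Both comparisons came from the same fit and share an estimate of each probe set's spread, so these calls are not independent repeats. With only the 6 CNP arrays compared, 4368 probe sets passed in place of 6841. A test of the difference between treatments passed for 33 of 13260 genes (0.249%) and for 47 of 27022 probe sets (0.174%). It passed for none of the 15 genes with the largest fall and for 2 of the 15 with the largest rise: Tnfsf11, whose hypertrophic arrays read 408, 548 and 679 with CNP, and Septin4. Col10a1 (3.29), Ihh (2.27), Mmp13 (2.79), Igf1 (-3.84) and Mki67 (-1.69) had log2 differences of the same sign with CNP, and none of them passed the test of the difference.

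**Figure D5:**
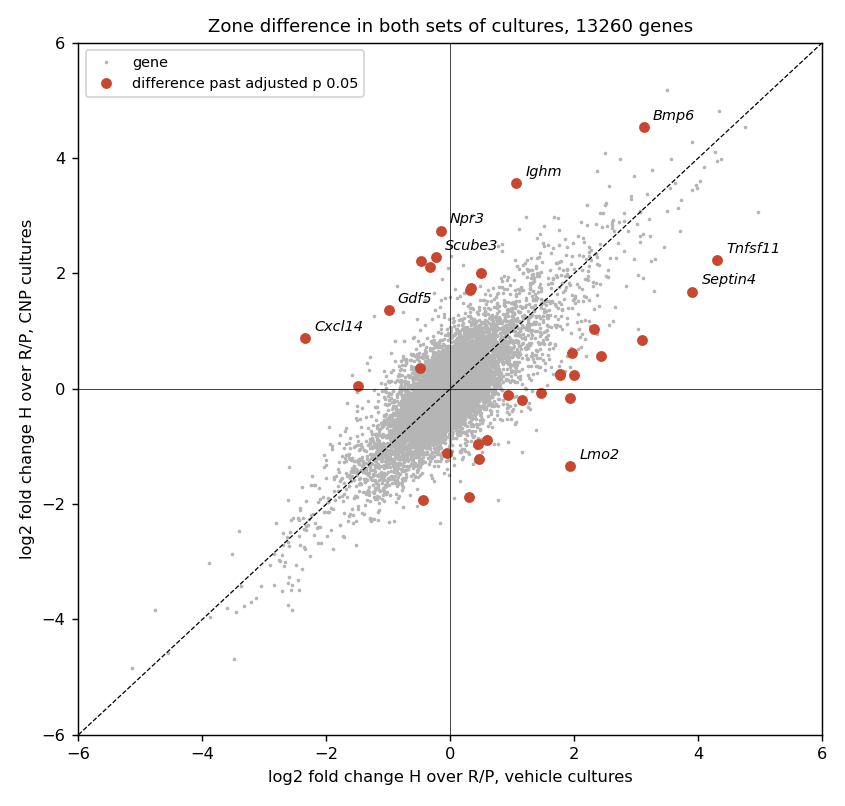
Log2 zone difference (hypertrophic, H, over resting/proliferating, R/P) of 13260 genes in vehicle cultures (horizontal axis) and in CNP cultures (vertical axis), with the line of equality dashed. Red points are the 33 genes whose difference between treatments passed an adjusted p of 0.05, among them Cxcl14 (-2.34 and 0.88) and Lmo2 (1.94 and -1.34), which lie on opposite sides of 0.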

How the data were processed

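Signal intensities of 18 Affymetrix MOE430_2 arrays were used as deposited by the authors, on a linear scale from 0 to 20519, with 1 value per probe set. Per the series design, results were analysed with GeneSpring 7.2; no source used here names the software that summarised probe sets. Deposited intensities had a trimmed mean (2% off each end) of 157.8 to 512.3 per array, so the arrays had not been scaled to one level. Of 45101 probe sets, 64 controls were left out. Intensities were quantile-normalized, taken as log2(signal + 16) and filtered at a mean signal of 68.3, which left out the lowest 40%. For arrays, their number limits the precision: 3 cultures per group. The series design calls the cultures independent trials.

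Groups came from titles. One limma fit (version 3.58.1, R 4.3.3; lmFit and eBayes with trend, two-sided) held the 6 groups with the culture as a block, because zones of a culture come from the same pooled bones, which left 8 residual degrees of freedom. P-values were adjusted over 27022 probe sets by Benjamini-Hochberg. Deviations from the group means of same-numbered vehicle arrays correlated at r = 0.0849, 0.316 and 0.155. The fit was tested on simulated data. Of the 45037 probe sets, 34945 had 1 gene symbol, 932 several and 9160 none, and 34741 matched the gene table by identifier. Each gene stands for the brightest probe set with that symbol and no other.

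Named are the 15 largest rises and the 15 largest falls with 1 sign in all 3 pairs, up to 4 members of each list past the threshold with the largest change (2 with the largest change if none passed), the 5 genes with the smallest p for the difference between treatments, and a set of growth plate genes named always. Members of lists named beyond the 4, and the family members in the closing section, were chosen after their values were seen. The comparison, the lists and the rule were chosen with earlier results of these data known. Alternatives changed the normalization, pseudocount, filter, block, arrays in the fit, fluidics run and variance trend, or left out 1 culture.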

Additional observations from a re-analysis of the deposited data

Results flagged for a closer look

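The zone difference was tested against that of the CNP cultures, and 47 probe sets (33 genes) passed an adjusted p of 0.05 by limma. The named genes among them are given as log2 zone differences, CNP minus vehicle, with the SE. Larger with CNP were Npr3 (2.89 ± 0.32), Scube3 (2.52 ± 0.29), Ighm (2.50 ± 0.31), Cxcl14 (3.22 ± 0.42), Bmp6 (1.42 ± 0.22) and Gdf5 (2.36 ± 0.42). Smaller with CNP were Lmo2 (-3.28 ± 0.38), Septin4 (-2.22 ± 0.30) and Tnfsf11 (-2.08 ± 0.35). Cxcl14, a chemokine, read 228, 325 and 270 in vehicle resting/proliferating and 45.8, 53.8 and 26.2 in vehicle hypertrophic arrays, but 315, 836 and 503 in CNP hypertrophic arrays. The hypertrophic arrays of the treatments did not overlap for this gene. Lmo2, a transcription cofactor of blood and vessel cells, read 338, 280 and 259 in vehicle and 75.3, 21.9 and 14.9 in CNP hypertrophic arrays. With any 1 culture number left out of both treatments, 7, 0 and 0 probe sets passed, so none of these differences should be taken as firm.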

How the results depend on the processing

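The 15 alternatives left most results where they stood. For the vehicle comparison, 5157 probe sets became 2254 without normalization and 2485 to 3255 without 1 culture, and all other settings gave 4378 to 5252. The pairing by culture mattered little there, with 4661 calls under no replicate block. In the CNP cultures, 6841 became 3024 without normalization, 4368 with only the 6 arrays compared, 3210 with the fluidics run as a term, and 3923 to 5579 without 1 culture. The difference between treatments, 47 probe sets, became 31 with median centring, 29 under no replicate block, 9 with the fluidics run, and 0 to 7 without 1 culture (without culture 3 or 4, 0 by limma, with 2326 and 2177 at an unadjusted p under 0.05). Of 149 named genes past the threshold, 0 changed sign under any alternative, and 21, 26 and 29 lost their call without culture 2, 3 and 4. The kept signs follow largely from the rule, which picked genes that passed with large changes in these same data. The signs that changed were of genes that had not passed. Without 1 culture, Col2a1 ranged from -0.074 to 0.38, Npr2 from -0.23 to 0.077, Npr3 from -0.26 to 0.029, Rpl14 from -0.24 to 0.11 and Sox9 from -0.51 to 0.18. Without normalization Npr2 gave 0.10, Npr3 0.021, Rpl14 0.046 and Sox9 0.052, and Cdkn1c gave -0.021 with median centring. The cause of these shifts was not tested, and fits without a culture hold fewer arrays.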

Other observations

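Some gene families that share a symbol stem, some with members in a list above, also differed between zones. Of 14 intraflagellar transport genes (Ift), which build the primary cilium, 5 fell and 0 rose, with log2 differences of -0.91 for Ift27, -0.88 for Ift74, -0.76 for Ift140, -0.72 for Ift81 and -0.67 for Ift122. Of 14 Sox genes, 6 fell, Sox5 and Sox6 of the transcription factor list among them, led by Sox11 (-2.25), and Sox4 alone rose (0.55, with overlap). Of 13 small nucleolar RNA host genes (Snhg), 5 fell and 0 rose, led by Snhg4 (-1.26). Of 16 Klf genes 5 rose and 1 fell, and of 14 non-receptor tyrosine phosphatases (Ptpn) 5 rose, led by Ptpn21 (1.89, with overlap between zones), and 1 fell. Over all genes 9.25% rose and 11.2% fell, and these families were picked from 116 after their counts were seen.

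Among 240 solute carrier genes 30 rose (12.5%) and 18 fell (7.5%). The largest rises were of the zinc transporter Slc30a2 (3.25), the amino acid transporters Slc36a2 (3.02), Slc38a4 (2.23) and Slc43a2 (2.23), and the citrate transporter Slc13a5 (2.23). The largest falls were of Slc27a3 (-1.96) and the glucose transporter Slc2a3 (-1.26, a call lost without culture 2 or 4). Among 36 collagen genes, those that rose most were Col22a1 (3.71), Col13a1 (3.23), Col10a1 (2.92) and Col24a1 (1.96), and those that fell most were Col14a1 (-3.13) and Col8a2 (-1.71).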
